A study of Mus musculus with 20 samples.

Results

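The stretch of mouse chromosome 12 that holds Rad51b and Zfp36l1 was described in ATAC-seq peaks, positions where the Tn5 transposase could cut open chromatin. A peak belonged to it if its summit lay in the mm10 span of either gene or within 50 kb of the span's ends. Peaks of a list that overlap were merged into regions, and regions that overlap between lists into sites. By this rule 94 of the 101406 sites of the series were members, 79 in the Rad51b window (chr12:79247282-79898260) and 15 in the Zfp36l1 window (chr12:80057760-80163013). The genes were chosen by measured values of these data, since Rad51b was among the genes with most peaks gained over lost 1 week after wounding, so the counts below are a description and none was tested.

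The cells came from tail epidermis of Lrig1CreER/Rosa-TdTomato mice, in which a Cre driven from Lrig1 switches on a red fluorescent protein in Lrig1-expressing cells and their descendants. They were sorted as Lrig1 GL and Sca1-positive, a sort meant to enrich upper hair follicle cells. All 20 libraries share this genotype and sort, and the label does not give the time of Cre activation, the age of the animals or the UVB dose. Of the 10 groups of 2 libraries, 4 form the wound course: homeostasis without a wound, 1 week and 8 weeks after the first wound, and 1 week after the second wound. A further 4 groups are epidermis treated with PRT4165, with wound and UVB, with UVB, and with vehicle. PRT4165 is an inhibitor of the histone H2A ubiquitin ligase of Polycomb repressive complex PRC1. The last pair are cells put in culture, taken from a distal memory region or from a control region, and both titles carry 8 weeks after wounding.

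RAD51B belongs to the BCDX2 complex, which acts in the repair of broken DNA by homologous recombination. ZFP36L1 is a zinc-finger protein of the tristetraprolin family that binds AU-rich elements in messenger RNAs and recruits the deadenylation machinery, so that those messages decay. The pair are neighbours on the chromosome: Rad51b, a long gene read toward higher coordinates, is followed by a stretch of non-coding transcripts and then by the short Zfp36l1, read in the opposite direction. Sites are assigned by position alone, which does not show that they act on either gene, and neither transcript nor protein was measured.

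A single list was deposited for each group, built on both libraries together, so replicate spread cannot be given for any value. The lists held 34644 (8 weeks) to 73340 regions (UVB), and read depth was not given. The 4 lists of the wound course (34644 to 49078 regions) were shorter than the 4 of treated epidermis (66541 to 73340), and counts move with that length. Signal strength, the authors' enrichment value per peak, is given as a percentile, the percentage of the same list's regions with a lower value. The percentile moves with list length too, so it describes the order of sites within a list and not a change between lists: of the 19075 sites of the series in all 10 lists, 21.6% were at a lower percentile in all 4 wound-course lists than in the 4 lists of treated epidermis, and 0.996% at a higher one. Lrig1 itself, the basal keratins Krt5 and Krt14 and the integrin Itga6 had a peak summit within 1 kb of an end or start in all 10 lists, and Ly6a, which encodes Sca1, in 8. Trp63, the regulator of stratified epithelium, had none at its ends but 6 to 19 regions inside its span. Of the T cell markers, 0 of 4 had such a peak in 6 lists and 1 of 4 (Cd247) in the 4 lists of treated epidermis, and both endothelial markers were without one in every list. Of the fibroblast markers 1 to 3 of 3 and of the melanocyte markers 1 to 2 of 3 had one. Peaks at the Y-linked genes Ddx3y, Uty and Eif2s3y were present for 3 of 3 in 5 lists (1 week, second wound, wound and UVB, both cultured) and for 0 of 3 in the other 5, and the part of this in any result below was not tested.

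The promoters of the domain are shown here because the accessible regions at them ranged from near the bottom of their lists (Zfp36l1) through the middle (Rad51b) to near the top (Zfyve26) by signal. The sequences are the RefSeq windows of 250 bases before to 50 after the start (GRCm38.p6), read 5′ to 3′ on the gene's strand. Rad51b is chr12:79297032-79297331, plus strand. A further RefSeq window of this gene, chr12:79297101-79297400, is not printed. Zfp36l1 is chr12:80112964-80113263, minus strand. Zfyve26, the gene read away from Rad51b on the other side of its start, is chr12:79296233-79296532, minus strand. Capitals mark letters found on either strand: TGANTCA for AP-1, GGGCGG for the GC box, CCAAT for the CCAAT box, CACGTG for the E-box and TATAAA for the TATA box.
Rad51b: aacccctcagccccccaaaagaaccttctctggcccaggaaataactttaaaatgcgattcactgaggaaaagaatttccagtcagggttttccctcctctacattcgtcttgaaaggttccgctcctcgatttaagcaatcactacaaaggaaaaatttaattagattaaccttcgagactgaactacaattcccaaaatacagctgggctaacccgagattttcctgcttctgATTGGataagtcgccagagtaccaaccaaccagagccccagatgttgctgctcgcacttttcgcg
Zfp36l1: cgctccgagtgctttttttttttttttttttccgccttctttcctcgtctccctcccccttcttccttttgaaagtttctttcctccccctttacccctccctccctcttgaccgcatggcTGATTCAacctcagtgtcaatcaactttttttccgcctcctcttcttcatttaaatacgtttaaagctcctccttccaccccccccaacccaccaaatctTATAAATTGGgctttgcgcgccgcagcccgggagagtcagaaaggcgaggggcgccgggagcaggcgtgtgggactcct
Zfyve26: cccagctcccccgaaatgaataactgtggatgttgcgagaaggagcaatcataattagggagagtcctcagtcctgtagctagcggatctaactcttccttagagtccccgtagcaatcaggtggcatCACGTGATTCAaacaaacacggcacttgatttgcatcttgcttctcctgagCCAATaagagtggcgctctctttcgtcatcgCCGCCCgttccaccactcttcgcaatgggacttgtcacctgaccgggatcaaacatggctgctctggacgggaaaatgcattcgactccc
In Rad51b the capitals are a CCAAT box on the opposite strand, its letters beginning 15 bases before the start. Counted from the start of the further window, the same box begins 84 bases before it. In Zfp36l1 they are an AP-1 match beginning 129 bases before the start and a TATA box beginning 29 bases before it, which overlaps a CCAAT box on the opposite strand. In Zfyve26 they are an E-box overlapping an AP-1 match, then a CCAAT box on the gene's strand and a GC box on the opposite strand. Of 32851 RefSeq promoters of this length, 7.81% held TGANTCA, 35.7% GGGCGG, 37.4% CCAAT, 7.15% CACGTG and 13.6% TATAAA. The G and C content was 45.0% for Rad51b, 52.0% for Zfp36l1 and 51.7% for Zfyve26, against a median of 52.7%. A match describes the letters only.

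The 3 start regions were as follows. The Zfyve26 start, 1.0 kb before the Rad51b start, lay in the site of the domain with the highest median percentile among those in all 10 lists (79295912 to 79296700), at signal percentile 78.3 to 90.5 over the 10 lists. The Rad51b start lay in a site of middle strength (79297091 to 79297716). Its percentile was 62.2 in homeostasis, 38.8 at 1 week, 50.3 at 8 weeks and 58.2 after the second wound. It was 55.5 with PRT4165, 44.6 with wound and UVB, 49.4 with UVB and 68.1 with vehicle, and 48.6 in the cultured distal and 43.8 in the cultured control list. All 10 lists held it, the 10 summits lay within 14 bp of each other, and the wound course overlapped the treated and the cultured lists.

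The Zfp36l1 start was at the other end of the scale. Its site (80112823 to 80113681) was in 9 lists and missing at 8 weeks, at percentile 1.4 (second wound) to 9.67 (vehicle), with signal values of 4.08 to 4.9. By the authors' −log10 p of the same peaks it was less low, at a median percentile of 34.1, against 73.7 for the Rad51b start and 91.9 for the Zfyve26 start. A site 1.5 kb before the Zfp36l1 start, in the predicted gene Gm52006, was in all 10 lists at percentile 10.2 to 32.3. The strongest site of the Zfp36l1 window lay 35.0 kb before its start, in no annotated gene (80147586 to 80148404). It was at 81.4 in homeostasis, 83.4 at 1 week, 71.8 at 8 weeks and 85.2 after the second wound. It was at 83.2 with PRT4165, 91.3 with wound and UVB, 88.8 with UVB and 85.0 with vehicle, but at 46.2 in the cultured distal and 49.4 in the cultured control list, so the cultured lists lay below all 8 others.

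Sites were dense along both genes. Rad51b had 12.1 sites per 100 kb and Zfp36l1 14.3, against a median of 6.32 over 21883 protein-coding genes with the same windows. Of those genes 3485 had more per 100 kb than Rad51b and 1928 more than Zfp36l1. By number of sites Rad51b was the 3rd gene, with a span of 550979 bp. At the window's edges, the outermost Rad51b site at the low end lay 1.03 kb inside (10 lists, median percentile 71.3) and the nearest outside it 17.2 kb away (10 lists, 69.8). At the high end of the Zfp36l1 window the distances were 15.0 kb inside (10 lists, 83.3) and 1.76 kb outside (1 list, 7.02).

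**Figure D1:**
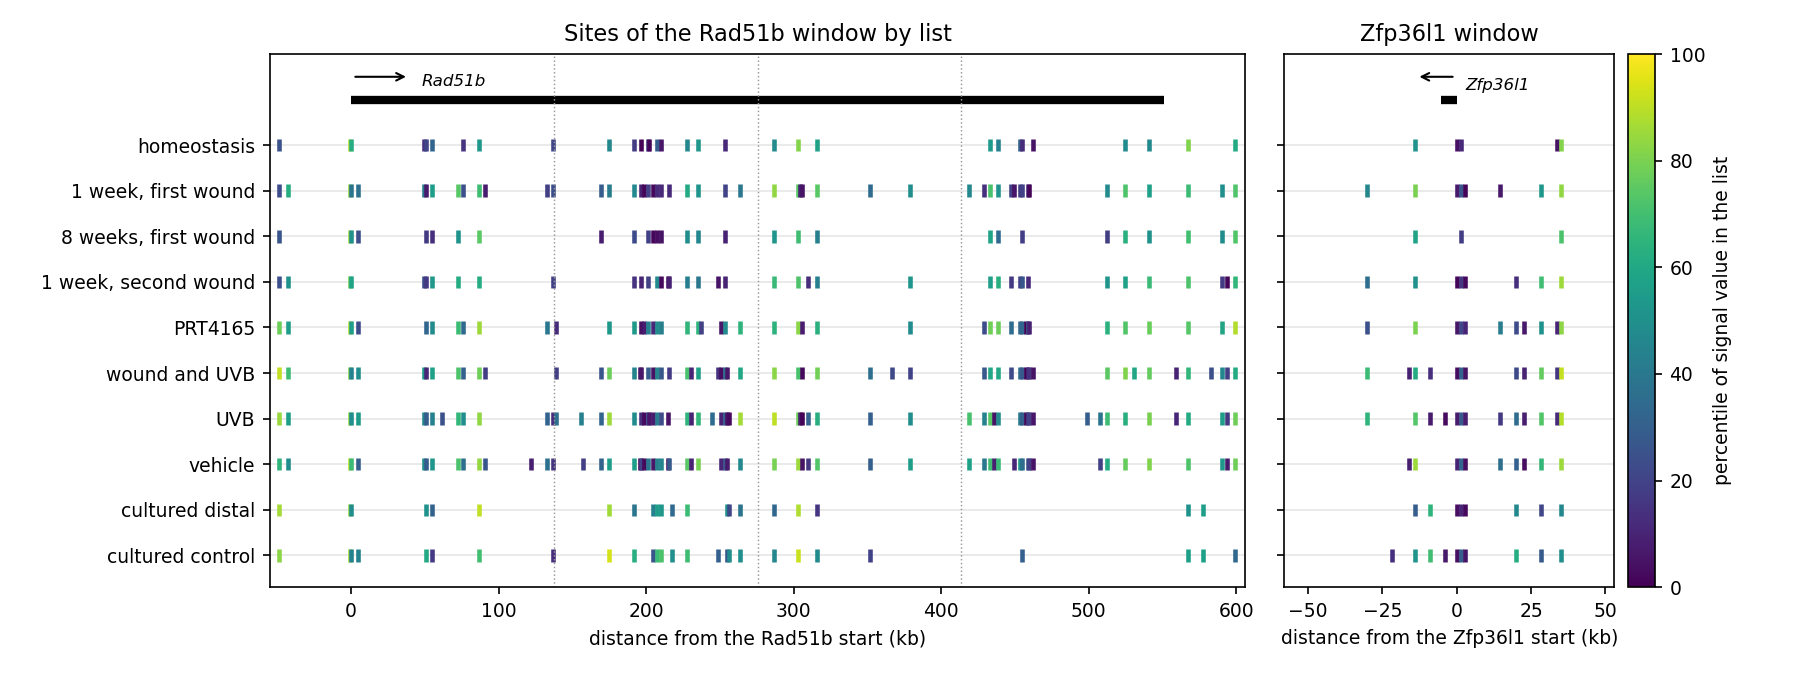
Sites of the Rad51b window (left) and the Zfp36l1 window (right) by distance in kb from each gene's start, 1 row per list, each tick coloured by the percentile of its signal value in that list; bars and arrows mark the genes and their direction, and dotted lines divide Rad51b into 4 equal stretches. The last of these holds 6 to 16 sites in the rows of uncultured cells and 0 and 1 in the rows of cultured distal and cultured control cells.

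Sites of the domain held by more lists had a higher median signal percentile. All 10 lists held 17 sites (18.1% of 94, against 18.8% of the series), 14 in the Rad51b window and 3 in the Zfp36l1 window. Their median signal percentile was 59.6 and their median width 715 bp. The 14 sites in 8 or 9 lists had a median of 55.1, the 32 in 4 to 7 lists 28.4, and the 31 in 1 to 3 lists 17.6 with a width of 370 bp. A site's width spans the regions of every list that holds it, so it can only grow with more lists. The same medians were not taken over the series, so they are not read as a trait of the domain. The part of list length in them was not tested. The summits of the 17 shared sites spread over 12 to 257 bp between lists, and 12 of them over less than 100 bp. With every list held to the length of the shortest, 8 sites were in all 10.

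Among the 17, the 5 with the highest median percentile included those at the Zfyve26 start and 35.0 kb before Zfp36l1. Another, 303.2 kb into Rad51b (79600055 to 79600815), was at 88.2 in cultured distal and 91.8 in cultured control cells and at 69.4 to 85.0 in the 8 uncultured lists, so the groups did not overlap. A further one, 86.5 kb into Rad51b (79383577 to 79384004), was at 53.4 to 74.5 over the wound course, at 77.8 to 85.3 in the 4 treated lists and at 90.4 in the cultured distal and 69.6 in the cultured control list.

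The last of the 5, inside Zfyve26 and 49.0 kb before the Rad51b start (79247940 to 79248654), was at a lower percentile in the wound course than in the other lists, which include the 4 longest. Its percentile was 25.1 in homeostasis, 23.1 at 1 week, 26.4 at 8 weeks and 24.4 after the second wound. It was 77.4 with PRT4165, 90.9 with wound and UVB, 84.4 with UVB, 65.2 with vehicle, 86.5 in the cultured distal and 82.6 in the cultured control list. The unwounded homeostasis list lay with the wounded ones. The part of list length in this difference was not tested. Of the 17 sites, 3 had all 4 wound-course lists below the other 6, against 9.84% of the 19075 sites that all 10 lists of the series share, and 0 had them above (0.682%). The other 2 were 210.0 and 227.4 kb into Rad51b. Both cultured lists lay below all uncultured ones at 3 of the 17 (20.1% in the series) and above at 4 (14.4%).

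**Figure D2:**
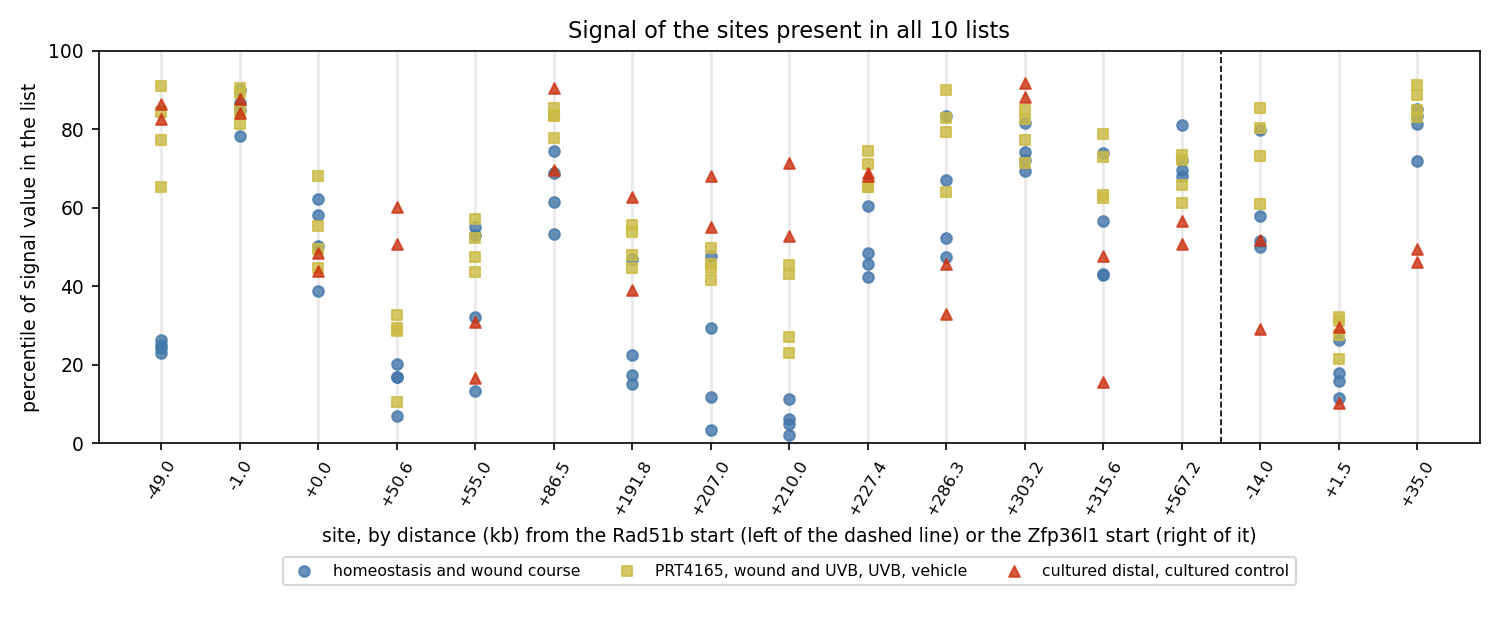
Percentile of the signal value in its list (y axis) for the 17 sites present in all 10 lists (x axis, by distance in kb from the Rad51b start, or from the Zfp36l1 start right of the dashed line, positive toward higher coordinates); 1 point per list. At the leftmost site the 4 wound-course lists sit between 23.1 and 26.4 and the other 6 between 65.2 and 90.9.

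Among the uncultured lists, longer lists held more Rad51b regions, with PRT4165 as the exception, and the cultured lists held fewer than uncultured lists that are shorter. The Rad51b window held 32 regions in homeostasis, 51 at 1 week, 29 at 8 weeks and 41 after the second wound. It held 46 with PRT4165, 60 with wound and UVB, 65 with UVB and 62 with vehicle, and 21 in the cultured distal and 27 in the cultured control list. As a share of the list these were 8.37 (8 weeks) to 10.4 (1 week) per 10000 regions over the wound course, 6.72 with PRT4165, 9.02 with wound and UVB, 8.86 with UVB, 8.86 with vehicle, 4.59 (Wilson 95% interval 3.0 to 7.02) in the cultured distal and 4.98 (3.42 to 7.25) in the cultured control list. The cultured lists were the lowest and PRT4165 the next, and the cultured intervals overlap those of 6 or more of the 8 uncultured lists.

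The Zfp36l1 window had 3 to 13 regions per list, broadly more in longer lists, and here the cultured lists were not the lowest. It held 5, 8, 3 and 8 regions in homeostasis, at 1 week, at 8 weeks and after the second wound. It held 11 with PRT4165, 12 with wound and UVB, 13 with UVB, 10 with vehicle, 8 in the cultured distal and 10 in the cultured control list. Per 10000 regions these were 0.866 (8 weeks) to 1.9 (second wound), with 1.75 in the cultured distal and 1.85 in the cultured control list, near the top of the range. With every list held to the 34644 strongest regions, the domain had 34 regions in homeostasis, 31 at 1 week, 32 at 8 weeks and 30 after the second wound, then 26 with PRT4165, 27 with wound and UVB, 25 with UVB, 27 with vehicle and 23 in each cultured list.

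**Figure D3:**
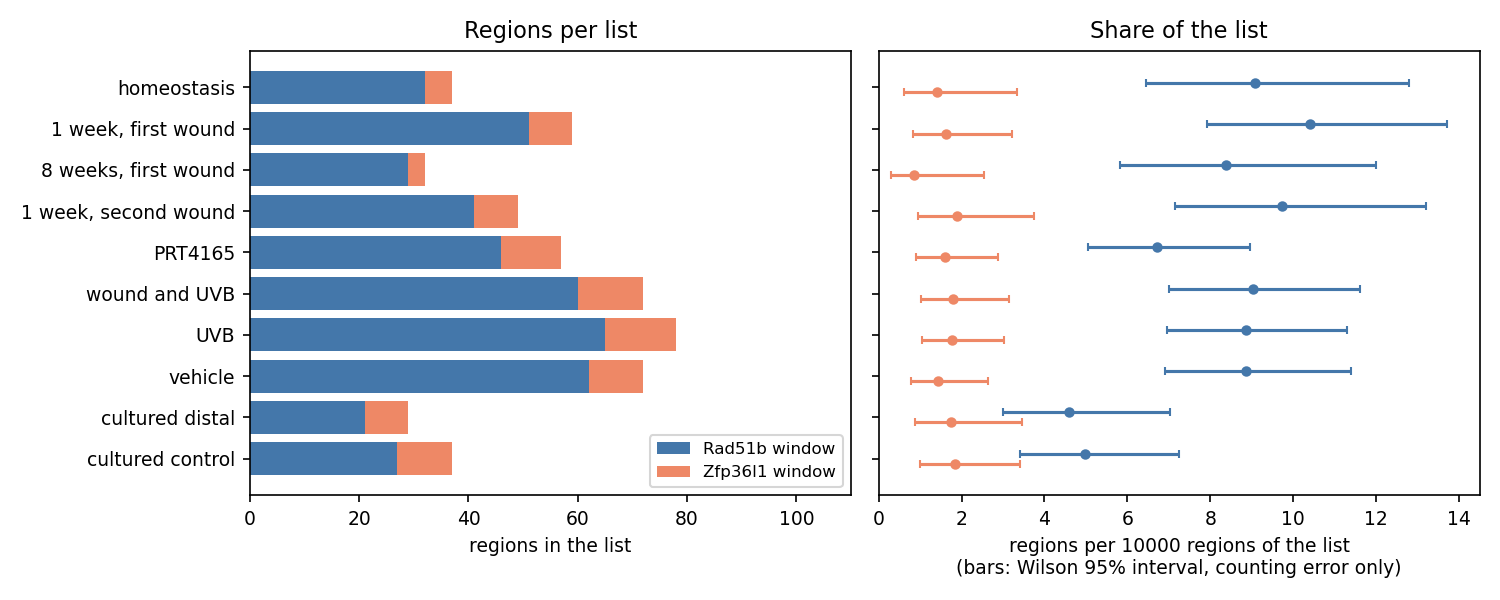
Regions in the Rad51b and Zfp36l1 windows in each list (left) and the same per 10000 regions of the list (right, bars are Wilson 95% intervals for counting error only). For Rad51b the cultured distal and cultured control lists have 4.59 and 4.98 per 10000, and the 8 uncultured lists 6.72 to 10.4.

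The first wound was set against homeostasis to ask which sites of the domain appear in these cells 1 week after injury. New sites appeared along the whole of Rad51b and before Zfp36l1, most of them weak, and few were lost. Of the 59 regions at 1 week 26 were gained, with no overlap in homeostasis (44.1%, Wilson 95% interval 32.2 to 56.7%, against 33.1% of the whole list). Of the 37 in homeostasis 3 were lost (8.11%, 2.8 to 21.3%, against 6.04%). The Rad51b window had 22 gained and 2 lost, the Zfp36l1 window 4 and 1. The 1-week contrast is the one for which the genes were picked, so nothing is read from the distance to the background.

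The gained regions had a median percentile of 18.5 and the shared ones 46.9. Along the domain, 1 lay before Rad51b, 4, 5, 4 and 7 in the 4 equal stretches of its span from start to end, 1 after it, 1 past the end of Zfp36l1 and 3 before its start. With both lists held to 35195 regions the sign turned, to 12 of 32 gained and 16 of 37 lost, against 23.9% and 22.8% of the whole lists. The vehicle list, which carries no wound in its label, held 23 of the 26 gained sites. With vehicle in place of homeostasis 3 regions were gained and 15 lost at 1 week. The vehicle list is longer (70008 regions, against 49078 at 1 week and 35195 in homeostasis). The same shares over the series are not given, so these counts are not read as a trait of the domain. The 1-week list has the Y-linked peaks and the homeostasis list does not, and fibroblast markers had a peak for 2 of 3 at 1 week and 1 of 3 in homeostasis. Their part in the result was not tested.

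Whether the 1-week sites were still there was followed at 8 weeks and after the second wound. Of the 26 sites gained at 1 week, 6 were in the 8-week list and 11 in the second-wound list, and 3 in both. Those in both made 3.19% of the domain's sites, against 3.28% of the series. Those in the second-wound list and not at 8 weeks made 8.51% against 4.45%. Those at 8 weeks and not after the second wound made 3.19% against 1.32%. The genes were picked for gains at 1 week, so nothing is read from these distances. Against homeostasis, the 8-week list had 6 of 32 regions gained (18.8%, 8.89 to 35.3%, against 17.9%) and 11 of 37 lost (29.7%, 17.5 to 45.8%, against 19.1%). In the strongest 50% of each list that direction turned, to 4 gained and 2 lost. Each of the 6 sites gained at 8 weeks was also in the 1-week list, the vehicle list and both UVB lists, all longer than the 8-week list. No share over the series is given beside this. The second-wound list had 17 of 49 gained (34.7%, 22.9 to 48.7%, against 27.3%) and 5 of 37 lost (13.5%, 5.91 to 28.0%, against 12.9%). With both lists held to 35195 regions its direction turned, to 8 of 33 gained and 11 of 37 lost, against 23.2% and 22.7% of the whole lists. It turned also with the longer vehicle list (70008 regions) as the control, to 3 and 27, for which whole-list shares are not given. These comparisons share the homeostasis list.

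The 3 sites held by all 3 wounded lists and not by homeostasis were in Rad51b or in the flank after it. The strongest, 72.7 kb into Rad51b (79369679 to 79370359), was at percentile 74.2 at 1 week, 51.2 at 8 weeks and 61.5 after the second wound. It was also at 68.0 with PRT4165, 71.9 with wound and UVB, 65.7 with UVB and 71.7 with vehicle, and in neither cultured list. The site 512.5 kb into Rad51b (79809448 to 79809923) was at 47.4 at 1 week, 18.4 at 8 weeks and 52.1 after the second wound, and that in the non-coding Gm46361 (79887189 to 79887995) at 49.5, 47.9 and 17.2. Both were in the 4 treated lists, vehicle included, and in neither cultured list.

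Of the sites gained at 1 week, 12 were in no other list of the wound course (12.8% of the domain's sites against 6.46% of the series). The genes were picked for gains at 1 week, so nothing is read from this distance. The vehicle list, longer than that at 1 week, held 11 of these, and the same share over the series is not given. The strongest lay 418.5 kb into Rad51b (79715257 to 79716354), at 46.4 at 1 week, 70.9 with UVB and 57.1 with vehicle, and in no other list. Next was the site 263.9 kb into Rad51b, at 39.5 at 1 week, 64.5 with PRT4165, 60.1 with wound and UVB, 86.4 with UVB, 47.2 with vehicle, 38.5 in the cultured distal and 49.5 in the cultured control list. The sites 352.0, 133.0 and 429.0 kb into the gene followed at 34.6, 18.4 and 13.9.

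Of the sites of homeostasis missing at 8 weeks, the strongest was at a higher percentile in the lists outside the wound course, all longer than homeostasis. This site, 174.7 kb into Rad51b (79471683 to 79472572), was at 46.2 in homeostasis and 41.4 at 1 week, and missing at 8 weeks and after the second wound. It was at 53.4 with PRT4165, 77.4 with wound and UVB, 85.3 with UVB, 55.2 with vehicle, 85.8 in the cultured distal and 93.7 in the cultured control list. The next 4, at 453.1, 136.7, 75.6 and 49.1 kb, were at 30.0, 20.4, 14.9 and 14.8 in homeostasis. New at 8 weeks beside the 3 above were, among others, the sites 4.7 kb into Rad51b, at 24.5, and 169.2 kb, at 8.03.

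Compared with 1 week, the 8-week list had 0 of 32 regions gained (0 to 10.7%, against 5.5%) and 27 of 59 lost (45.8%, 33.7 to 58.3%, against 33.7%), 22 in the Rad51b and 5 in the Zfp36l1 window. Each region of the domain at 8 weeks overlapped one at 1 week. With both lists held to 34644 regions, 10 of 32 were gained and 9 of 31 lost, against 22.3% and 23.2% of the whole lists. The second wound against the first had 5 of 49 gained (10.2%, 4.44 to 21.8%, against 9.85%) and 17 of 59 lost (28.8%, 18.8 to 41.4%, against 23.1%). At 42200 regions each, the direction turned, to 13 of 49 gained and 8 of 42 lost, against 18.0% and 18.9% of the whole lists. The genes were picked for gains at 1 week, so nothing is read from the distances to the background in either comparison with the 1-week list. The second wound against 8 weeks had 19 of 49 gained (38.8%, 26.4 to 52.8%, against 27.1%) and 3 of 32 lost (9.38%, 3.24 to 24.2%, against 11.3%). At 34644 regions 7 of 30 were gained and 9 of 32 lost, against 21.9% and 21.5% of the whole lists. One Zfp36l1 site, 28.2 kb before its start (80140827 to 80141813), was at 53.5 at 1 week and 69.2 after the second wound and missing in homeostasis and at 8 weeks. All other lists held this site, the unwounded vehicle list included. It was at 51.1 with PRT4165, 76.1 with wound and UVB, 72.7 with UVB and 66.1 with vehicle. In culture it was at 21.0 in the distal and 27.8 in the control list. It was chosen after its values were seen.

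**Figure D4:**
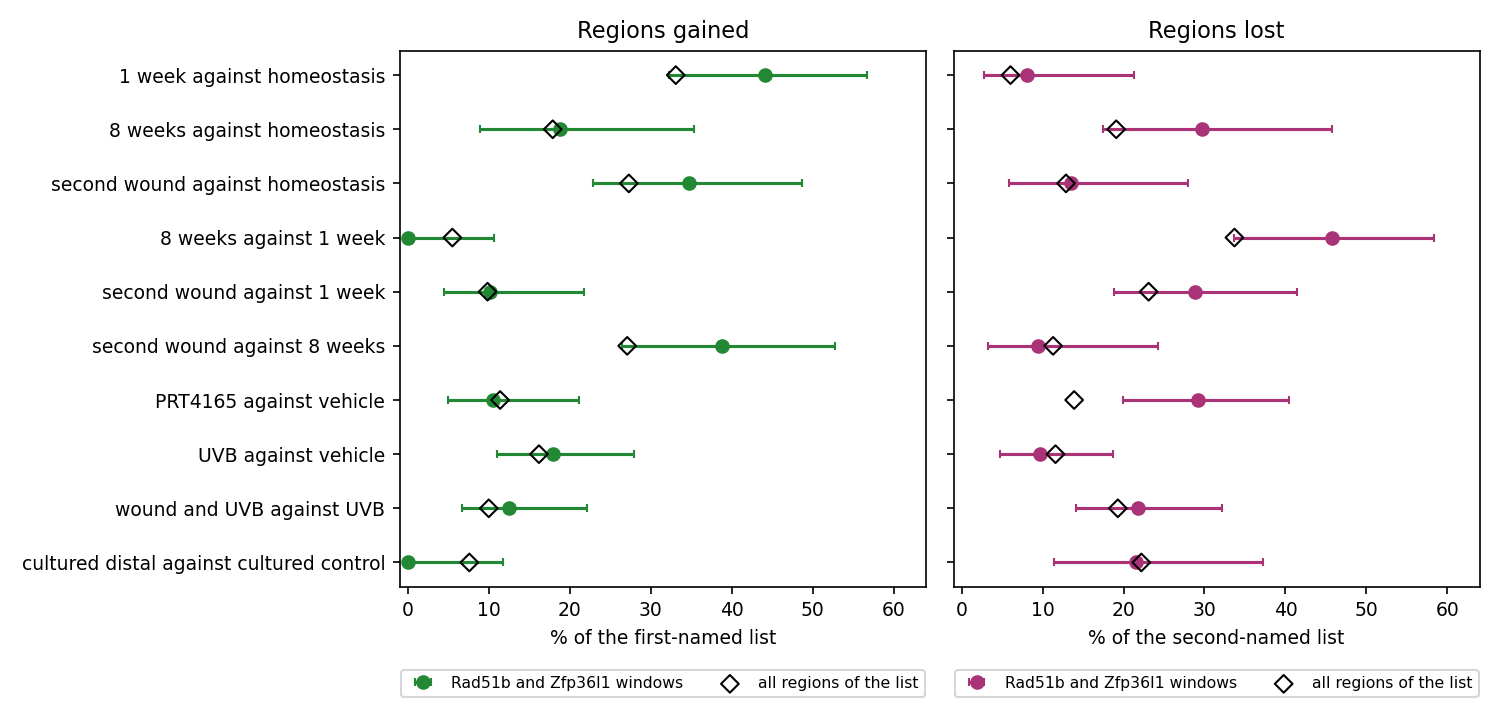
Regions of the 2 windows gained (left, as % of the first-named list's regions there) and lost (right, as % of the second-named list's) in the 10 comparisons; filled points with Wilson 95% intervals are the windows and open diamonds the whole lists. In PRT4165 against vehicle 29.2% were lost in the windows and 13.9% in the whole list.

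PRT4165 was compared with vehicle to ask what opens or closes when this Polycomb inhibitor is applied. In Rad51b more sites were missing than new, all along the gene, and in the Zfp36l1 window few differed. Of the 72 vehicle regions 21 were lost (29.2%, 19.9 to 40.5%, against 13.9% of the vehicle list), and of the 57 PRT4165 regions 6 were gained (10.5%, 4.91 to 21.1%, against 11.4%). The Rad51b window had 4 gained and 20 lost, the Zfp36l1 window 2 and 1. Neither list has the Y-linked peaks. Fibroblast markers had a peak for 1 of 3 with PRT4165 (Dcn and Pdgfra without one), against 3 of 3 with vehicle, and their part in the result was not tested. With both lists held to 68411 regions, 6 were gained and 20 lost, where the series had 12.4% and 13.0%.

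The lost regions were weak, with a median percentile of 15.5, and lay 4, 7, 3 and 5 in the 4 stretches of Rad51b from start to end. They made 20 sites, of which 18 were in 5 or fewer lists and 2 in vehicle alone. The UVB list held 13 of them, the wound-and-UVB list 11, the 1-week list 8 and homeostasis 3. The strongest was the site 418.5 kb into Rad51b named above, at 57.1 in vehicle. The strongest gained was 447.0 kb into the gene (79744130 to 79744637), at 35.2 with PRT4165, 18.6 at 1 week, 17.0 after the second wound and 22.5 with wound and UVB. Limited to the stronger 50% of each list, the domain had 2 gained and 4 lost.

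The same comparison was read at Macrod2 and Ror2, which also gained many peaks at 1 week. Of the vehicle regions of Rad51b 32.3% were missing with PRT4165, against 8.11% at Macrod2, a mono-ADP-ribosyl hydrolase gene and the one with most sites (112), and 15.8% at Ror2, a receptor for Wnt5a. By gained minus lost regions Rad51b had -16, and 0 of the 21883 protein-coding genes had a lower balance. It was also the lowest for 8 weeks against 1 week (-22) and for the second wound against 1 week (-12). It was the highest for 1 week against homeostasis (20), the contrast by which the genes were picked. Nothing is read from the ranks that use the 1-week list. A balance of counts favours genes with many regions.

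UVB against vehicle asked what ultraviolet light changes, and wounding with UVB against UVB what a wound adds. The group labels do not name vehicle as the control of UVB, so UVB and the vehicle treatment cannot be told apart in the first. In both comparisons, the shares gained and lost in the domain lay within counting error of those of the whole lists. UVB had 14 of 78 regions gained (17.9%, 11.0 to 27.9%, against 16.2%) and 7 of 72 lost (9.72%, 4.79 to 18.7%, against 11.6%), 10 and 6 at Rad51b and 4 and 1 at Zfp36l1. In the strongest 50% of each list the direction with UVB turned, to 4 gained and 6 lost. PRT4165 and UVB share the vehicle list. Wound and UVB had 9 of 72 gained (12.5%, 6.72 to 22.1%, against 10%) and 17 of 78 lost (21.8%, 14.1 to 32.2%, against 19.3%), with Y-linked peaks in the wound-and-UVB list and not in the UVB list. At 66541 regions each the counts turned, to 18 of 72 gained and 10 of 62 lost, against 15.7% and 16.9% of the whole lists. In the strongest 50% they turned to 4 and 3.

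The strongest site gained with UVB was in the Zfp36l1 window, 30.1 kb past the start and within the non-coding Gm36660 (80082760 to 80083289). It was at percentile 65.0 with UVB, 68.0 with wound and UVB, 24.6 with PRT4165, 46.4 at 1 week and 35.7 after the second wound, and missing in vehicle, homeostasis, at 8 weeks and in both cultured lists. The strongest lost with UVB, 215.4 kb into Rad51b, was at 27.5 in vehicle. The wound-and-UVB list alone held a site 530.3 kb into Rad51b (79827201 to 79827821), at 59.3. Other sites of a single list were weaker: 43.0 for UVB at 155.9 kb, 19.3 for PRT4165 at 236.8 kb and 18.5 for vehicle at 157.0 kb into Rad51b, and 14.0 for cultured control cells 21.7 kb past the Zfp36l1 start.

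Cultured cells lacked most sites of the last of the 4 stretches of Rad51b. This comparison with the uncultured lists, the stretches and the sorting of sites into patterns were chosen after the data were seen. Of 91 sites in at least 1 uncultured list, 57 were in neither cultured list (62.6%, against 51.6% of the series). The Rad51b window had 52 of 77 missing (67.5%) and the Zfp36l1 window 5 of 14 (35.7%). By stretch of Rad51b from start to end, 7 of 13 (53.8%), 17 of 27 (63.0%), 5 of 9 (55.6%) and 18 of 19 (94.7%) were missing.

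The last stretch held 0 sites in the cultured distal and 1 in the cultured control list. It held 12 with PRT4165, 14 with wound and UVB, 16 with UVB and 15 with vehicle, and 7 in homeostasis, 13 at 1 week, 6 at 8 weeks and 9 after the second wound. With each list held to 34644 regions both cultured lists had 0 there and the uncultured lists 5 to 7. In the same setting the second stretch held 9 in the cultured distal and 8 in the cultured control list and 4 to 9 in the uncultured lists, so the cultured lists were short at the gene's end and not in the second stretch.

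**Figure D5:**
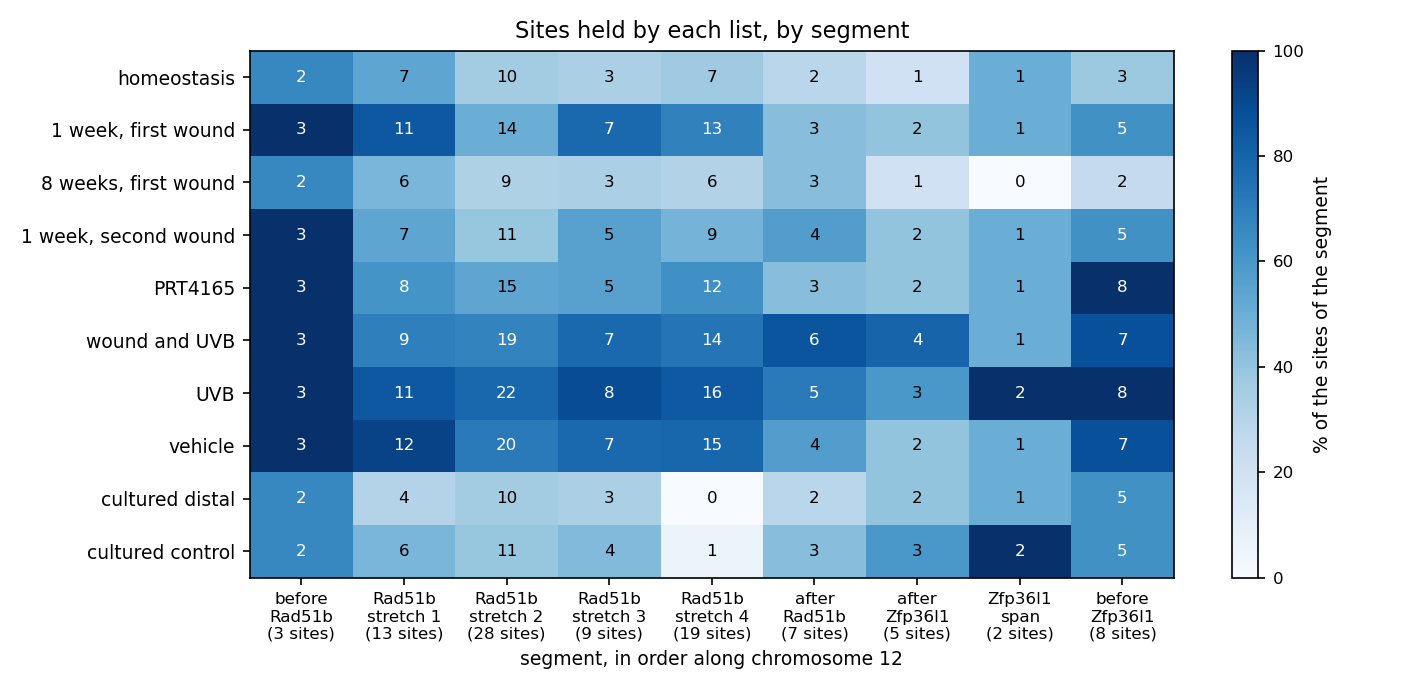
Number of sites each list holds in each segment along chromosome 12 (cell text), coloured as a percentage of the segment's sites; rows are lists and columns segments in map order. In stretch 4 of Rad51b the cultured distal and cultured control rows read 0 and 1, and the 8 uncultured rows 6 to 16.

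The sites that culture lacked there included strong ones. All 8 uncultured lists shared 26 sites, and 7 of these were in neither cultured list (26.9%, against 19.8% of the series). All 7 lay in Rad51b, 4 of them in its last stretch, at 433.1 kb (79729907 to 79730746, percentile 54.3 to 78.1), 438.5 kb (79735215 to 79736357, 34.1 to 77.4), 524.7 kb (79821578 to 79822672, 47.9 to 81.0) and 541.1 kb (79838058 to 79839083, 47.5 to 81.2). The other 3 lay 201.3, 235.4 and 253.2 kb into the gene. The 1 site of the last stretch in a cultured list (79751703 to 79752301) was at 29.9 in the cultured control.

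In the opposite direction, 3 sites of the domain were in cultured lists alone (3.19% of the domain's sites against 13.8% of the series). Of these, 2 were in both cultured lists (2.13% against 7.75%). One lay 217.6 kb into Rad51b, at 34.3 in the cultured distal and 49.5 in the cultured control list. The other was in Gm46361 after Rad51b, at 55.6 in the cultured distal and 56.9 in the cultured control list. Near Zfp36l1, a site 9.1 kb past its start (80103213 to 80104193) was at 64.5 in the cultured distal and 69.3 in the cultured control list, at 13.5 with wound and UVB and 7.36 with UVB, and in no other list. It was chosen after its values were seen. Both cultured lists have the Y-linked peaks, and the 3 uncultured lists that also have them held 13 (1 week), 9 (second wound) and 14 (wound and UVB) sites in the last stretch of Rad51b. The uncultured 8-week list, of the same time after wounding, held 6 there. The parts of culture, of the Y-linked peaks and of time after wounding in the counts of this stretch were not tested.

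Cells from the distal memory region were compared with those from the control region to ask whether a difference survives culture. Every distal region of the domain overlapped one of the control list. Of its 29 regions 0 were gained (0 to 11.7%, against 7.6%), and of the 37 cultured control regions 8 were lost (21.6%, 11.4 to 37.2%, against 22.2%), 6 in the Rad51b and 2 in the Zfp36l1 window. The strongest lost was the site 4.7 kb into Rad51b (79301828 to 79302193), at 43.7 in the cultured control. At 45714 regions each, 2 of 29 were gained and 5 of 32 lost, against 15.5% and 16.0% of the whole lists.

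Other genes of the same pathways were looked up with the same windows. Of 15 genes of homologous recombination, among them the other BCDX2 subunits Rad51c, Rad51d and Xrcc2, with Xrcc3, Brca1 and Brca2, 14 had a peak summit within 1 kb of an end or start in every list, where 50.2 to 62.2% of all protein-coding genes had one per list. The exception was Dmc1, the meiotic recombinase, with a peak there in none. They had 3 to 17 sites each, median 9, against 79 at Rad51b. At 1 week 8 of the 15 gained more than they lost and 0 the reverse (56.0% and 4.06% of all genes). At 8 weeks against homeostasis 5 gained more and 6 lost more (20.7% and 27.1%). With PRT4165, 3 gained more and 8 lost more (21.6% and 32.9%). Among these, Rad51d and Xrcc3 each had 3 gained and 0 lost at 1 week, and Rad51c and Xrcc2 0 and 0.

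Of 16 genes that bind AU-rich elements or remove poly(A) tails, 14 had such a peak in every list (50.2 to 62.2% of all genes per list), among them the relatives Zfp36 and Zfp36l2, the stabilising factor Elavl1 and the scaffold Cnot1. Zfp36l3, the placental relative in rodents, and Cnot7, a deadenylase, had one in none. They had a median of 12 sites, against 15 at Zfp36l1. At 1 week 10 gained more and 1 lost more (56.0% and 4.06% of all genes). At 8 weeks against 1 week these were 0 and 9 (3.23% and 58.0%), and with PRT4165 5 and 6 (21.6% and 32.9%).

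The genes whose presence over the 10 lists was most like that of Rad51b were found among 1757 genes with 20 or more sites, by the mean absolute difference in the percentage of sites held. These were Cry2, a repressor of the circadian clock (3.6 points, 24 sites), Afap1 (3.85, 20), Ksr1, a scaffold of the MAP kinase cascade (4.28, 27), Lima1, an actin-binding protein (4.28, 23), and Tgfb3, a TGF-beta ligand (4.35, 20), with a median of 11.4 points over all. Rad51b sites were held to 39.2% in homeostasis, 64.6% at 1 week, 36.7% at 8 weeks and 49.4% after the second wound, against gene medians of 36.4, 52.2, 35.0 and 45.0%. With PRT4165 it was 58.2% against a median of 68.2%, and with vehicle 77.2% against 71.4%. In the cultured distal list it was 26.6% against 44.0%, and in the cultured control list 34.2% against 52.2%. Macrod2 was at 12.7 points from Rad51b and Ror2 at 7.96. Zfp36l1 has too few sites for this measure.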

How the data were processed

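ATAC-seq was made from 20 libraries, and the authors deposited 10 narrowPeak lists, 1 per group of 2 libraries. Labels do not say whether the 2 libraries of a group come from separate animals. By their names, per the labels, the lists hold peaks reproducible between replicates. They give the authors' score (540 to 1000), the deposited signal value of each peak, its −log10 p-value as deposited (2.00 or higher), and the deposited summit offset, another number used for position. Coordinates are in mm10, the build named in GEO per the submitters' processing notes. Aligner, peak caller, filters and depth were not given in the sources used here.

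Overlapping peaks were merged into regions, the strongest peak giving signal and summit, and regions of all lists sharing 1 bp into sites. A region was gained or lost when it had no 1 bp overlap in the other list. Shares have Wilson 95% intervals, for counting error only. The 20 overlap counts checked were equal to those of bedtools 2.31.1. On simulated data, a homeostasis list with 7 domain regions removed and 12 added, 7 and 12 were found. Python 3.11.15, numpy 2.4.6, pandas 2.3.3, scipy 1.17.1 and matplotlib 3.10.9 were used.

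Gene spans came from RefSeq for GRCm38.p6, the assembly of mm10. Exons, introns and UTRs were not separated. RefSeq promoter starts were used beside gene ends when looking for a peak at a gene, a change from the plan to use ends. Both genes and Zfyve26 were found in the promoter table, as were the 15 and 16 genes of the pathway lists in the gene table. A further gene of the planned recombination list is not reported here.

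Members, gene lists and rules were chosen with earlier results of these data known. Named sites are those at the gene ends, the 5 strongest in all 10 lists, up to 5 in each wound-course pattern, and the strongest of 1 list or of a comparison. Alternatives were unmerged peaks, other flanks, stricter overlap, summits within 200 bp, equal length, the strongest 50% and vehicle as control.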

Additional observations from a re-analysis of the deposited data

How the results depend on the processing

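No paired analysis was possible because each group's 2 libraries are pooled in 1 list, and for the same reason no replicate could be left out. Depth is unknown, so a missing region may be one not detectable in that list. Flanks of 20 kb and 100 kb kept all 10 list counts within 1.5 times. Unmerged peaks gave 120 for UVB and 56 for the cultured control. At the shortest length the domain had 31 regions at 1 week, 30 after the second wound, 26 with PRT4165, 27 with wound and UVB, 25 with UVB, 27 with vehicle and 23 in the cultured control, and 8 sites in all 10 lists. Sites in all uncultured and neither cultured list (7) were 6 with summits chained within 200 bp and 5 at the shortest length, both alternatives chosen after seeing the data.

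An overlap of 50% gave 6 lost at 1 week against homeostasis, 2 gained at 8 weeks against 1 week and 11 lost with UVB. Summits within 200 bp gave 6 lost at 1 week against homeostasis, 2 gained at 8 weeks against 1 week, 8 gained after the second wound against 1 week and 5 lost against 8 weeks. At equal length, which makes gains and losses nearly equal over whole lists, gained and lost were 12 and 16 for 1 week against homeostasis, 8 and 11 for the second wound, 10 and 9 for 8 weeks against 1 week, 13 and 8 for the second wound against 1 week and 7 and 9 against 8 weeks, 18 and 10 for wound and UVB against UVB, and 2 and 5 for cultured distal against control. In the strongest 50% they were 9 and 1 for 1 week, 10 and 2 for the second wound against homeostasis, 4 and 2 for 8 weeks against homeostasis, 1 and 7 for 8 weeks against 1 week, 3 and 3 for the second wound against 1 week and 6 and 0 against 8 weeks. They were 2 and 4 with PRT4165, 4 and 3 for wound and UVB against UVB, 1 and 3 for cultured distal against control, and 4 and 6 for UVB against vehicle. Whole-list shares are not given for the strongest 50%, so a turn there is not read as a trait of the domain. Vehicle in place of homeostasis gave 3 and 15 at 1 week, 0 and 40 at 8 weeks and 3 and 27 after the second wound. The vehicle list was longer than each of these lists, and whole-list shares are not given for this setting. Beyond these constructions, the cause was not tested.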

Other observations

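Between the windows lies an interval of 159.0 kb (chr12:79898261-80057759) of non-coding transcripts and pseudogenes, which belongs to neither gene by the rule. It held 20 sites, 2 of them in all 10 lists. By list these were 8 in homeostasis, 9 at 1 week, 4 at 8 weeks and 9 after the second wound, then 15 with PRT4165, 12 with wound and UVB, 14 with UVB, 14 with vehicle, 6 in the cultured distal and 8 in the cultured control list. The strongest (79975638 to 79976539) was at signal percentile 57.6 in homeostasis, 95.9 at 1 week, 73.5 at 8 weeks and 89.0 after the second wound. It was at 94.2 with PRT4165, 96.5 with wound and UVB and 95.9 with UVB, between the PRT4165 and UVB values with vehicle, and at 71.1 in the cultured distal and 85.5 in the cultured control list. Its homeostasis value was the lowest of the 10.

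In the same interval 3 sites were in both cultured lists and in no uncultured list. They were at 67.1 in the cultured distal and 63.8 in the cultured control list (79936584 to 79937361), at 32.9 and 52.9 (79950649 to 79951029), and at 78.7 and 70.3 (79990405 to 79991276). A site near its high end (80041461 to 80042100) was at 70.3 in homeostasis, 33.6 at 1 week and 48.2 after the second wound, and missing at 8 weeks and in both cultured lists. These sites were chosen after their values were seen.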
